A study of Mus musculus with 9 samples.

Results

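The 10 genes described here, Ahr, Arnt, Cyp1b1, Cyp2e1, Ephx1, Gsta3, Gsta4, Gstm1, Gstm2 and Gstp1, serve the sensing, oxidation and glutathione conjugation of foreign and reactive compounds. They were followed in mouse ovary as a named set of genes, by symbol, and for each symbol the row with the highest mean expression was taken. They occupy 9 of the 33450 rows of the expression table, of which 24530 carry a gene symbol, because Gstm1 and Gstm2 share a row. A size rule, a fold of 2 or more with separate intervals, was met by 0 of the 9 rows in HFLN over Control, and by 0 of the 8 rows that could be compared in HFOB over Control and in HFOB over HFLN. Of all rows considered, 0.283%, 0.366% and 0.195% met it in the same order, so a count of 0 was not particular to these genes. Control levels ran from 3.87 FPKM for Ahr to 1943 FPKM for the shared Gstm row.

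Ovarian RNA came from 9 female mice of the inbred strain C57BL/6J, aged 15 weeks, on a diet for 10 weeks. The HFLN group held 3 mice given the 60% fat diet whose weight stayed lean, the HFOB group 3 mice that grew obese on the same diet, and the Control group 3 mice given standard chow of 16% fat. The animals' response to the diet, and not assignment, divided HFLN from HFOB, and the labels name no allele or drug in any group. The series set the groups side by side to see whether the diet, with obesity or without it, goes with altered ovarian gene expression.

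The aryl hydrocarbon receptor, encoded by Ahr, binds planar aromatic ligands, moves to the nucleus and pairs with the protein of Arnt to switch on genes such as those of the Cyp1 family. Cytochromes P450 and epoxide hydrolase then oxidise or hydrolyse the compounds, and glutathione transferases join reactive products to glutathione for export. In the ovary these enzymes are known for activating and detoxifying follicle toxicants, among them polycyclic hydrocarbons and the industrial epoxide 4-vinylcyclohexene diepoxide.

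Expression is given as FPKM, which counts sequenced fragments per transcript length and per library size, so that levels of different genes can be compared per length. The deposited table holds 1 FPKM per group with a lower and an upper bound, and the 3 animals of a group are combined in it. No SD, test or p-value can therefore be given, and how many animals carry a difference is unknown. Log2 folds were taken on log2(FPKM + 1), which understates differences of low genes. The size rule asked for a fold of 2 or more, up or down, together with intervals of both groups that stayed apart. Rows of at least 1 FPKM in some group with status OK in both groups entered, which left 16929 to 16932 rows per comparison. Rows without a symbol took 27.6% of the summed FPKM in HFLN, 36.8% in HFOB and 42.2% in Control. The summed FPKM of protein-coding rows was 467133.2 in HFLN, 508843.5 in HFOB and 542221.8 in Control. Rescaling to make these sums equal raised log2 folds of HFLN over Control by up to 0.215 and of HFOB over Control by up to 0.0917. The ovary label was checked on markers of granulosa, theca and luteal, oocyte and stromal cells, and all 6 genes of each list reached 1 FPKM in some group.

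The receptor pair came first. Ahr, the ligand-binding receptor subunit (chr12:35497979-35534989 on GRCm38.p6, minus strand), stood at 3.63 FPKM in HFLN with a deposited interval of 1.74 to 5.53. It stood at 3.21 in HFOB (1.44 to 4.98) and 3.87 in Control (1.87 to 5.86). The 3 intervals overlapped over most of their length, and Ahr was the lowest of the 9 rows, with intervals that overlapped those of Cyp2e1 in each group. Its log2 fold was -0.07 for HFLN over Control, -0.21 for HFOB over Control and -0.14 for HFOB over HFLN. A predicted gene on the opposite strand, Gm48236, overlaps it, and whether the counting kept strands apart is unknown. Arnt, the partner subunit that the receptor needs to bind DNA (chr3:95434367-95497240, plus strand), stood at 19.9 FPKM in HFLN (13.2 to 26.5), 19.5 in HFOB (13.0 to 26.1) and 18.2 in Control (12.0 to 24.4). Arnt was thus several times as abundant as Ahr in each group, with all 3 of its own intervals overlapping. The predicted gene Gm42672 overlaps Arnt on the same strand, where strand-specific counting would not divide them. Its log2 folds were 0.12, 0.10 and -0.03 for HFLN over Control, HFOB over Control and HFOB over HFLN.

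Enzymes that oxidise or hydrolyse the compounds were next. Cyp1b1, a P450 that activates polycyclic hydrocarbons and hydroxylates oestradiol (chr17:79706940-79715061, minus strand), stood at 85.0 FPKM in HFLN (51.9 to 118), 86.2 in HFOB (48.7 to 124) and 75.4 in Control (39.0 to 112). Both high-fat values lay above the Control value and well inside its interval, with log2 folds of 0.17 for HFLN over Control and 0.19 for HFOB over Control. Between HFOB and HFLN the fold was 0.02. Cyp2e1, a P450 of small solvents, ethanol and ketones that also acts on 4-vinylcyclohexene (chr7:140763819-140774990, plus strand), was low, at 6.18 FPKM in HFLN (2.69 to 9.67), 5.30 in HFOB (2.28 to 8.33) and 5.22 in Control (2.13 to 8.31). HFLN was the highest of the 3 by a margin far narrower than any of the intervals, with a log2 fold of 0.21 over Control, against 0.02 for HFOB over Control and -0.19 for HFOB over HFLN. Ephx1, the microsomal epoxide hydrolase (chr1:180989556-181017569, minus strand), was the second most abundant row at 183 FPKM in HFLN (102 to 265), 182 in HFOB (110 to 254) and 192 in Control (95.5 to 289). Its log2 folds were -0.07, -0.08 and -0.01 in the order used for Arnt. The 3 Ephx1 values lay closer together, relative to their level, than those of any other row of the set.

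Cyp1b1 and its relative Cyp1a1, both textbook targets of the receptor, stood at very different levels in these ovaries. Cyp1a1 was listed at 0 FPKM in HFLN and HFOB and at 0.00846 in Control (0 to 0.0459), and Cyp1a2 was listed at 0 in all 3 groups. The promoter windows of Cyp1b1 and Cyp1a1 are shown because both hold the same receptor motif while their levels differ. GCGTG, the core of the xenobiotic response element, is in capitals, read on the other strand in Cyp1b1. Each window runs from 250 bases before to 50 after the start site in the RefSeq table of GRCm38.p6, which for Cyp1a1 is a start inside the annotated span of the gene.
Cyp1b1 promoter, chr17:79715012-79715311, minus strand: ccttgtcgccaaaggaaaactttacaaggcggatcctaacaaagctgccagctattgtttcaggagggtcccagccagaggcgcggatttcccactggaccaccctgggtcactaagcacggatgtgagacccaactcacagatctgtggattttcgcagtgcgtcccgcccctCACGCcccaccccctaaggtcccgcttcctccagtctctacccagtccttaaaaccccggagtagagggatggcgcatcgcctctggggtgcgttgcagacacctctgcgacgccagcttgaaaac
Cyp1a1 promoter, chr9:57697363-57697662, plus strand: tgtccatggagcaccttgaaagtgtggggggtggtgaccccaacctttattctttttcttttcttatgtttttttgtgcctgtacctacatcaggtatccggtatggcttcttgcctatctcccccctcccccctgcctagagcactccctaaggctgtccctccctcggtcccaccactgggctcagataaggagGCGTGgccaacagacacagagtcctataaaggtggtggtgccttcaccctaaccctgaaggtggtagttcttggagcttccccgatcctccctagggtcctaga
The match began 76 bases upstream of the start in Cyp1b1 and 54 bases upstream in Cyp1a1. Searched on both strands, GCGTG occurred in the windows of 4 of the 8 genes of the set that had one (Arnt, Cyp1b1, Gstm1 and Gstp1), and in 32.4% of all 32851 windows of the table. The antioxidant response core TGACNNNGC occurred in 2 of the 8 (Arnt and Gsta3), and in 12.4% of all windows. These matches are descriptions of letters in a window and not of binding.

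Among the glutathione transferases, the alpha class held the widest fold of the set. Gsta4, whose enzyme conjugates 4-hydroxynonenal and other products of lipid peroxidation (chr9:78191966-78209349, plus strand), stood at 93.5 FPKM in HFLN (60.8 to 126), 90.9 in HFOB (58.9 to 123) and 126 in Control (83.2 to 169). Both high-fat values were below the Control value and close to each other, at 0.742 of it in HFLN and 0.721 in HFOB, while their intervals overlapped that of Control over a wide stretch. The log2 fold was -0.43 for HFLN over Control and -0.47 for HFOB over Control, and -0.04 for HFOB over HFLN. Of all rows considered, 4.64% had a lower fold than Gsta4 in HFLN over Control and 3.94% in HFOB over Control. These 2 comparisons share their Control value, so the nearness of the folds is not repeated evidence. The bounds allow a ratio to Control between 0.360 and 1.52 in HFLN, and between 0.349 and 1.48 in HFOB. After rescaling, which raised the folds over Control of the other rows as well, the log2 folds were -0.21 and -0.38. The shares of 4.64% and 3.94% are without rescaling and cannot be set beside these 2 values. Gsta3, an alpha-class enzyme of aflatoxin epoxide conjugation in mice (chr1:21240565-21265575, plus strand), stood at 7.42 FPKM in HFLN (2.33 to 12.5), 7.93 in HFOB (2.88 to 13.0) and 7.99 in Control (2.85 to 13.1). The Gsta3 values were near one another, with the widest intervals of the set relative to the value, and log2 folds of -0.10 for HFLN over Control, -0.01 for HFOB over Control and 0.09 for HFOB over HFLN. The predicted gene Gm28836 overlaps Gsta3 on the opposite strand.

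Gstm1 and Gstm2, mu-class enzymes that conjugate many epoxides and quinones, could not be told apart, because the table merges them with Gstm4 in 1 row. The genes are neighbours on the minus strand of chromosome 3, at chr3:107981702-107986420 for Gstm2, chr3:108012250-108017973 for Gstm1 and chr3:108030571-108045179 for Gstm4. Of codon-aligned windows of 90 coding bases, the one with the most positions identical in all 3 genes was picked. The printed stretch is therefore more alike than the coding sequences as a whole. Coding bases 145 to 234 of each (GENCODE M21 annotation of GRCm38) are printed so that the merged genes can be compared, with capitals for bases that differ from Gstm1.
Gstm1: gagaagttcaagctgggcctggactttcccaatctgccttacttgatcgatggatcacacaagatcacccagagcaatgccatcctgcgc
Gstm2: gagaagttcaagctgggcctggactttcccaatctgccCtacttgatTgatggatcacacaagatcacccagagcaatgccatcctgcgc
Gstm4: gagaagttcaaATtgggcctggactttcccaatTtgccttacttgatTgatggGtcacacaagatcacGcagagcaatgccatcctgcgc
Over the whole coding sequence of 654 bases, 493 positions were identical in all 3, and Gstm1 shared 85.9% of its bases with Gstm2 and 80.1% with Gstm4. The longest identical run between Gstm1 and Gstm2 was 60 bases. Relatives with rows of their own were as close, with Gstm3 sharing 89.5% of the bases of Gstm1, Gstm6 82.9% and Gstm7 82.6%, so likeness was not particular to the merged genes. The predicted gene Gm12499 overlaps Gstm4 on the same strand. The merged row was the most abundant of the set, at 1666 FPKM in HFLN (825 to 2508) and 1943 in Control (904 to 2983), a ratio of 0.857 and a log2 fold of -0.22 with overlapping intervals. In HFOB the deposited value was 1656 with the status FAIL and an upper bound of 838 below the value itself, so no comparison with HFOB was made for this row.

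Gstp1, the pi-class enzyme (chr19:4035411-4037912, minus strand), stood at 80.9 FPKM in HFLN (50.9 to 111), 71.8 in HFOB (44.1 to 99.5) and 77.6 in Control (48.2 to 107). HFOB was the lowest of the 3 and all intervals overlapped, with log2 folds of 0.06 for HFLN over Control, -0.11 for HFOB over Control and -0.17 for HFOB over HFLN. Its coding sequence is 98.1% identical to that of Gstp2, which had its own row at 0.21 FPKM in HFLN, 0.27 in HFOB and 0.27 in Control, and the division of reads between the 2 genes is uncertain.

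**Figure D1:**
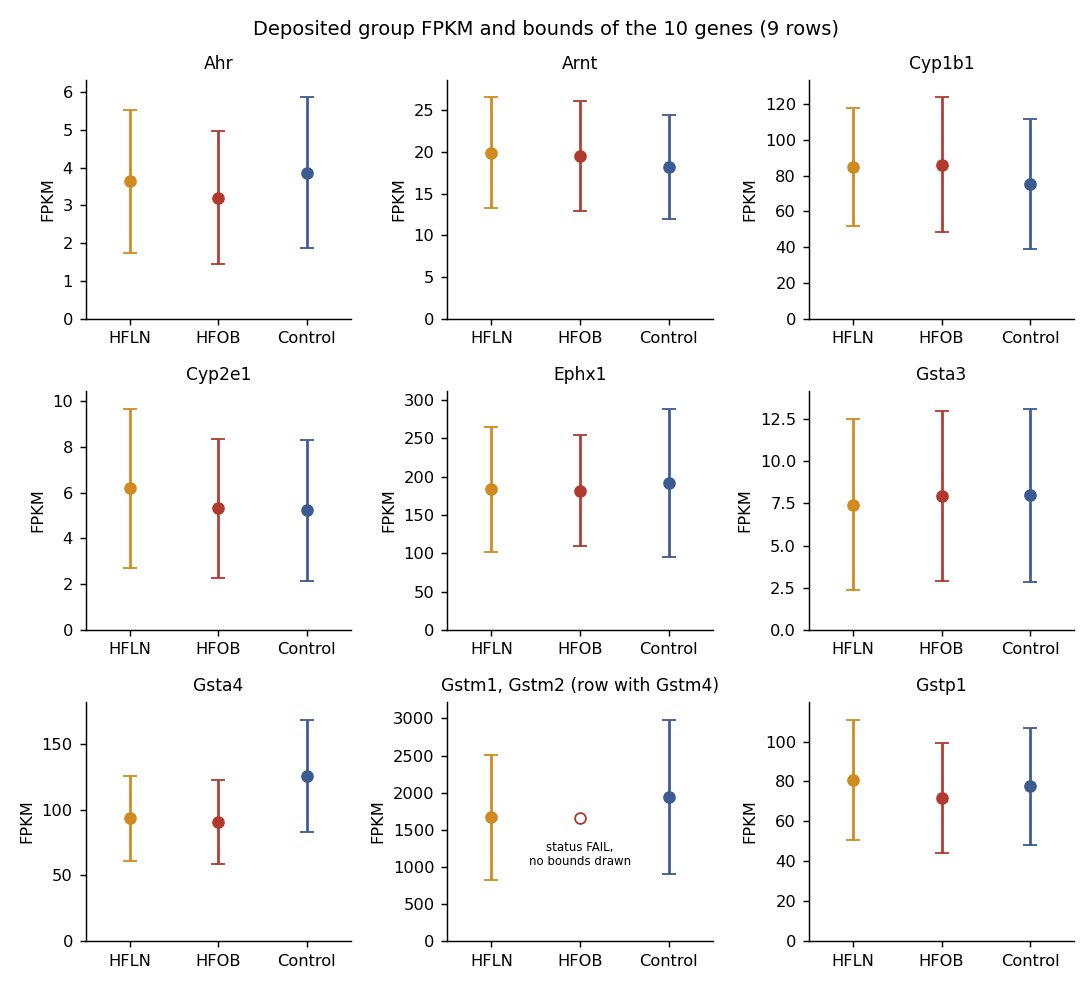
FPKM (vertical axes, each from 0) of the 9 rows in HFLN, HFOB and Control, with points for the deposited group values and bars for the deposited bounds. In all 9 panels the drawn intervals overlap, Gsta4 is lower in HFLN and HFOB than in Control at 93.5, 90.9 and 126 FPKM, and the open point marks the HFOB value of the shared Gstm row with status FAIL.

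By the mean of the 3 groups, the panels of levels put the shared Gstm row first at 1755 FPKM with its failed HFOB value included, then Ephx1 at 186, Gsta4 at 103, Cyp1b1 at 82.2, Gstp1 at 76.8, Arnt at 19.2, Gsta3 at 7.78, Cyp2e1 at 5.57 and Ahr at 3.57. Control alone had Gstp1 above Cyp1b1. Neighbours in this order had separate intervals at 3 steps only. The Gstm row lay above Ephx1 in HFLN and Control, Gstp1 above Arnt in all 3 groups, and Arnt above Gsta3 in HFLN. Ephx1, Gsta4, Cyp1b1 and Gstp1 overlapped each with the next, and so did Gsta3, Cyp2e1 and Ahr.

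The rows were set against the whole table in each comparison, 9 of them in HFLN over Control and 8, without the Gstm row, in the comparisons with HFOB. In HFLN over Control 0 of 9 rows passed the size rule, where 0.283% of all 16932 rows passed. In that comparison 5 of the 9 were lower in HFLN, beside 49.9% of all rows (2 of 9 after rescaling, beside 17.0% of all rows), with a median log2 fold of -0.07 against 0.0004 over all rows. In HFOB over Control 0 of 8 rows passed, where 0.366% of all 16929 rows did. Here 5 of 8 were lower in HFOB, beside 53.0% of all rows (3 of 8 after rescaling, beside 31.4%), with a median of -0.04 against -0.01. In HFOB over HFLN 0 of 8 rows passed, beside 0.195% of all 16931. Of these, 6 of 8 were lower in HFOB, beside 52.2% of all rows (8 of 8 after rescaling, beside 78.0%), and the median was -0.03 against -0.01. The middle 90% of all rows ran from -0.41 to 0.34 in HFLN over Control and from -0.41 to 0.29 in HFOB over Control. Gsta4 lay just beyond the lower end in both, and the other rows compared lay within these ranges.

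**Figure D2:**
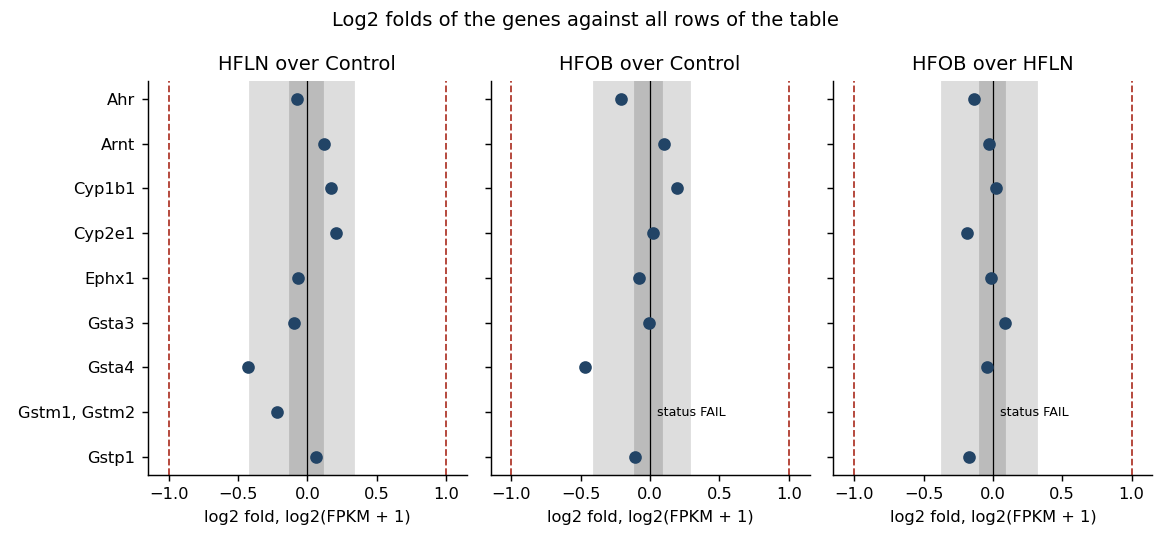
Log2 folds on log2(FPKM + 1) of the 9 rows (points) in the 3 comparisons, with the dark band for the range between the quartiles and the light band for the middle 90% of all rows considered, and dashed lines at a fold of 2 up and down. Gsta4, at -0.43 in HFLN over Control and -0.47 in HFOB over Control, is the single point outside the light band, and no point comes near a dashed line. After rescaling Gsta4 stands at -0.21 and -0.38, but rescaling moves the other rows as well. The bands are drawn without rescaling, so these 2 values cannot be read against them.

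The plot of folds also shows how coarse the table is for these genes. The half-width of the deposited interval was 33.4% to 68.6% of the value. If a second group had the same relative width as Control, its value would have to differ 2.03-fold from Control for Gsta4, 2.04-fold for Arnt, 2.22-fold for Gstp1 and 2.87-fold for Cyp1b1 before the intervals separated. For the remaining rows that ratio was 3.03 for Ephx1, 3.13 for Ahr, 3.30 for the Gstm row, 3.90 for Cyp2e1 and 4.61 for Gsta3. Smaller differences were not detectable with these bounds, which does not show that they were absent.

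The rest of the glutathione transferase family was read for comparison. Of 12 other transferase rows of at least 1 FPKM, cytosolic except for Gstk1, 0 passed in any comparison. The widest fold was that of Gstk1, the mitochondrial and peroxisomal kappa enzyme, at 32.0 FPKM in HFLN (13.6 to 50.4), 33.5 in HFOB (15.9 to 51.1) and 46.4 in Control (24.4 to 68.4). Its log2 folds of -0.52 for HFLN over Control and -0.46 for HFOB over Control were close to those of Gsta4, and its intervals overlapped. Gsta2, an alpha-class enzyme that also reduces lipid peroxides, stood at 11.4 FPKM in HFLN, 13.1 in HFOB and 16.6 in Control. In HFOB over HFLN the widest folds were those of Gsto2, a dehydroascorbate reductase at 0.564 FPKM in HFOB and 1.04 in HFLN, and Hpgds, a prostaglandin D synthase at 4.16 FPKM in HFOB and 5.21 in HFLN. Gsto1, at 210 FPKM in HFLN, 198 in HFOB and 179 in Control, was above Control in both high-fat groups with overlapping intervals. By count 7 of the 12 were lower in HFLN than in Control (4 after rescaling) and 8 lower in HFOB than in Control (6 after rescaling). Of all rows, 49.9% were lower in HFLN than in Control and 53.0% in HFOB (17.0% and 31.4% after rescaling). These shares also stand beside the counts of the later lists. Mgst1, the membrane-bound microsomal transferase, was the most abundant relative of the shared Gstm row, at 575 FPKM in HFLN, 633 in HFOB and 626 in Control. The other microsomal genes had middle levels, Mgst2 at 56.3, 57.0 and 59.5 FPKM in HFLN, HFOB and Control, and Mgst3 at 51.4, 63.8 and 63.1. Gsta1, near-identical to Gsta2, and Gstm3 were below 0.2 FPKM in every group.

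**Figure D3:**
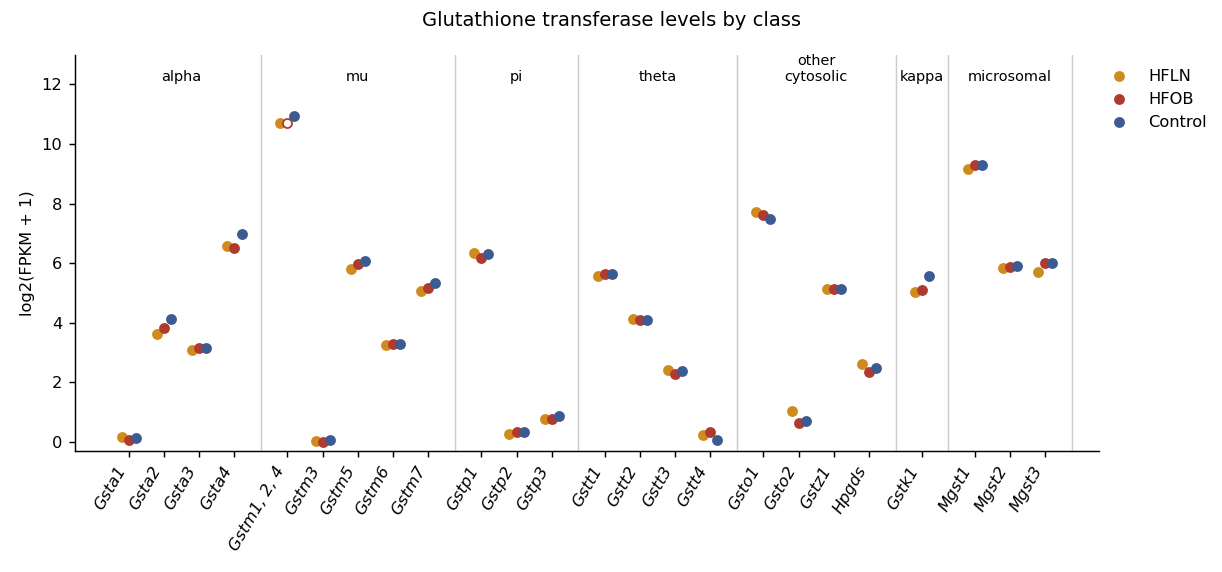
Levels of the glutathione transferase rows on a log2(FPKM + 1) axis, by enzyme class, with 1 point each for HFLN, HFOB and Control. The shared row of Gstm1, Gstm2 and Gstm4 is highest at 1666, 1656 (open point, status FAIL) and 1943 FPKM, Mgst1 follows at 575, 633 and 626, and Gsta4 (93.5, 90.9 and 126), Gsta2 (11.4, 13.1 and 16.6), Gstk1 (32.0, 33.5 and 46.4) and Gstm7 (32.4, 35.2 and 39.8) are among those with both high-fat points below Control; the intervals of all of them overlap.

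Partners and further targets of the receptor differed widely in level. The chaperone gene Hsp90ab1 stood at 1131 FPKM in HFLN, 1144 in HFOB and 1152 in Control. Arnt2, the close relative of Arnt, stood at 16.7 FPKM in HFLN, 18.7 in HFOB and 14.8 in Control. Tiparp, a receptor target that ADP-ribosylates the receptor, stood at 17.6 FPKM in HFLN, 16.3 in HFOB and 18.5 in Control. The repressor gene Ahrr stood at 0.385, 0.435 and 0.334 FPKM in the same order, and the target Nqo1, a quinone reductase, at 3.71, 4.10 and 4.11 with bounds that reach 0. The row that merges Ugt1a6a with other Ugt1a glucuronosyltransferases stood at 12.8 FPKM in HFLN, 10.8 in HFOB and 12.6 in Control. Of the 7 rows of this list at 1 FPKM or more, 0 passed in any comparison, and 5 of 7 were lower than Control in HFLN (0 after rescaling) and in HFOB (3 after rescaling).

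Other enzymes that oxidise, reduce or hydrolyse such compounds gave 0 passing rows among 10 of the P450 list and 21 of the remaining list. Of the 10 P450 rows, 3 were lower in HFLN than in Control (1 after rescaling) and 5 lower in HFOB than in Control (4 after rescaling). Of the 21 others, 10 were lower than Control in each high-fat group (2 after rescaling in HFLN and 3 in HFOB). Ephx2, the soluble epoxide hydrolase that complements Ephx1, stood at 593 FPKM in HFLN (295 to 891), 609 in HFOB (305 to 912) and 784 in Control (203 to 1366). Adh1, an alcohol and retinol dehydrogenase, stood at 132 FPKM in HFLN, 148 in HFOB and 183 in Control. Both lay below Control in the high-fat groups with overlapping intervals. Cyp2f2, a P450 of airway club cells that activates naphthalene, was highest in HFLN at 11.4 FPKM, beside 7.88 in HFOB and 7.33 in Control, and Cyp2b10, a drug-inducible P450, likewise at 1.55, 0.653 and 0.883. The summed FPKM of 6 oviduct and motile-cilia markers was also highest in HFLN, at 546 against 355 in HFOB and 438 in Control, with 6 of 6 markers above Control. Their part in the Cyp2f2 and Cyp2b10 values was not tested. Cyb5r3, which reduces cytochrome b5, stood at 164 FPKM in HFLN, 139 in HFOB and 162 in Control. The carboxylesterase row of Ces1d, Ces1e and Ces1f stood at 45.1, 36.0 and 28.2 FPKM in HFLN, HFOB and Control with bounds that reach 0 in all groups, and Ces2g at 11.8, 9.80 and 10.8.

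Glutathione, the co-substrate of the Gst enzymes, is made and turned over by a list of 10 genes, of which 8 rows had at least 1 FPKM. Of these, 7 of 8 were lower in HFLN than in Control (5 after rescaling) and 7 of 8 lower in HFOB than in Control (6 after rescaling), with median log2 folds of -0.22 and -0.30 and 0 rows passing. Chac1, which degrades glutathione and rises in the unfolded protein response, stood at 1.18 FPKM in HFLN (0.153 to 2.21), 0.668 in HFOB (0.0738 to 1.26) and 2.64 in Control (0.574 to 4.70). With log2 folds of -0.74 for HFLN over Control and -1.12 for HFOB over Control it was, on the log2(FPKM + 1) scale, the single pathway row past a fold of 2, in HFOB over Control, and its intervals overlapped. Ggct, a cyclotransferase of gamma-glutamyl peptides, stood at 13.4 FPKM in HFLN (6.58 to 20.3), 14.1 in HFOB (7.12 to 21.1) and 21.4 in Control (11.7 to 31.2). Gclc, the catalytic subunit of the rate-limiting ligase of glutathione synthesis, stood at 39.3, 34.96 and 41.7 FPKM in HFLN, HFOB and Control. Ggt5, a glutamyltransferase, was the exception above Control in both high-fat groups, at 10.2 FPKM in HFLN and 10.1 in HFOB against 8.25 in Control.

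Later steps and regulators gave the same picture of overlapping intervals. Nnmt, a methyltransferase of nicotinamide, stood at 5.65 FPKM in HFLN, 6.30 in HFOB and 7.64 in Control, and the acetyltransferase Nat2 at 4.22, 4.83 and 3.58. The sulfotransferase Sult1a1, in a row merged with Slx1b, stood at 15.3, 16.4 and 13.4 FPKM in HFLN, HFOB and Control. Among efflux pumps, which export glutathione conjugates or drugs, Abcc4 stood at 3.64 FPKM in HFLN, 3.97 in HFOB and 4.88 in Control, Abcc5 at 30.9, 32.3 and 25.4, Abcc1 at 10.1, 9.02 and 10.9, and the row that merges Abcb1a, Abcb1b and Abcb4 at 71.1, 65.3 and 65.6. Nfe2l2, which encodes the activator NRF2 of many Gst genes, stood at 81.6 FPKM in HFLN (54.0 to 109), 78.3 in HFOB (52.0 to 105) and 96.4 in Control (63.9 to 129), with log2 folds of -0.24 for HFLN over Control and -0.30 for HFOB over Control. The nuclear receptors were lower in level. Nr1i2, the pregnane X receptor gene, stood at 1.17, 0.57 and 0.681 FPKM, Nr0b2 at 3.37, 3.75 and 4.23, and Rxra at 15.9, 17.7 and 16.0 in HFLN, HFOB and Control. Rows lower than Control numbered 8 of 11 in HFLN and 9 of 11 in HFOB for the other conjugation enzymes (2 and 6 after rescaling), 4 of 6 in each for efflux pumps (1 and 2), and 4 of 6 in HFLN and 3 of 6 in HFOB for regulators (2 and 3). Over all 9 lists, 82 of 110 distinct rows reached 1 FPKM, and 0 of them had separate intervals in any comparison. Separate intervals were rare in the whole table, at 48 of 16932 rows in HFLN over Control and 63 of 16929 in HFOB over Control. In HFOB over HFLN they were found in 35 of 16931. Of the 82, 50 were lower in HFLN than in Control (18 after rescaling), beside 49.9% of all rows (17.0%). In HFOB 50 were lower than in Control (32 after rescaling), beside 53.0% of all rows (31.4%).

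**Figure D4:**
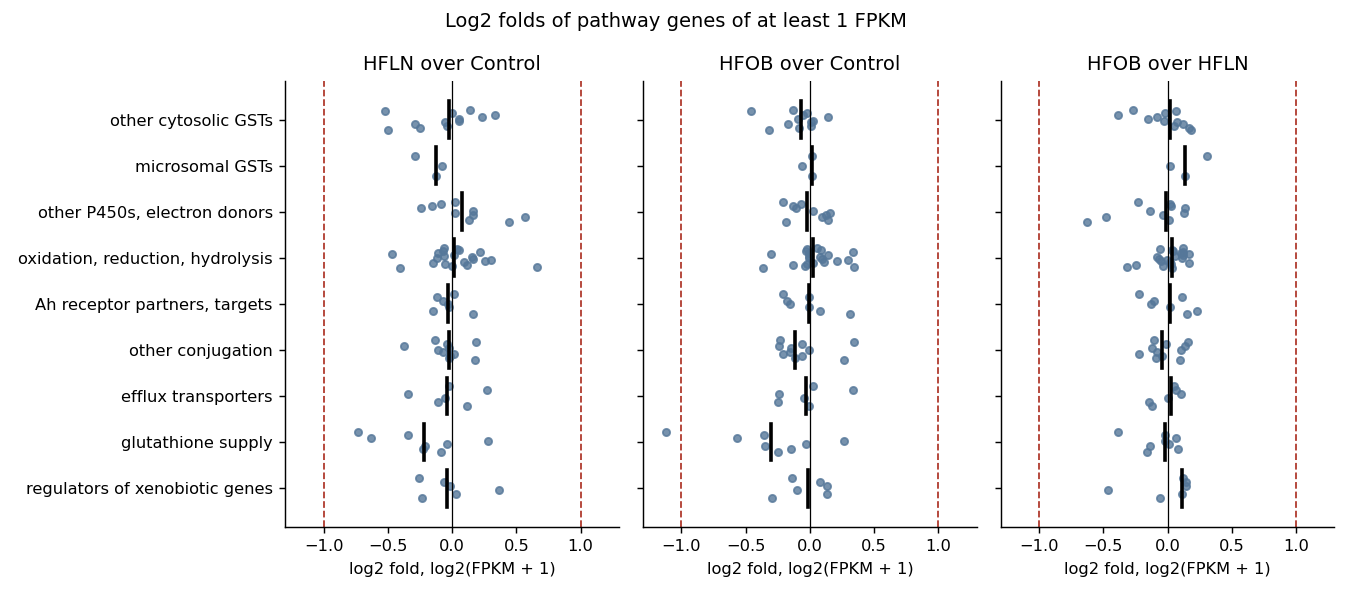
Log2 folds on log2(FPKM + 1) of the pathway rows with at least 1 FPKM, by list, in the 3 comparisons, with short black bars at each list's median and dashed lines at a fold of 2. The glutathione supply list has the lowest medians against Control, -0.22 for HFLN and -0.30 for HFOB (-0.02 and -0.21 after rescaling), and its point beyond the dashed line in HFOB over Control is Chac1 at -1.12.

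Several cell markers differed between the groups alongside these genes. In bulk ovary, fewer cells of a type and less RNA per cell cannot be told apart. The summed FPKM of 6 granulosa markers was 1757 in HFLN, 1866 in HFOB and 2142 in Control, and that of 6 theca and luteal steroidogenic markers 6480, 6582 and 7407 in the same order. Both sums were thus below Control in both high-fat groups, and so were the erythroid and endothelial sums. By gene, 6 of 6 granulosa and 4 of 6 theca and luteal markers were lower in HFLN than in Control. In HFOB 4 of 6 and 5 of 6 were lower. The theca and luteal sum includes Cyp11a1 at 3054, 3120 and 3608 FPKM in HFLN, HFOB and Control, with lower bounds of 0 in all groups. After rescaling, the theca and luteal sum was above Control in HFLN, at 7522 FPKM, and below it in HFOB, at 7014, and the granulosa sums were 2040 in HFLN and 1988 in HFOB. The endothelial sum was 110 in HFLN, 104 in HFOB and 115 in Control, and after rescaling 127 in HFLN and 110 in HFOB. Adipocyte markers summed to 129 FPKM in HFLN, 203 in HFOB and 131 in Control, and Lep was the 1 of 6 that passed the size rule in HFOB over Control. By gene, 4 were higher and 2 lower in HFOB than in Control, and 2 were higher and 4 lower in HFLN than in Control. In HFOB over HFLN 6 of 6 were higher and 1 passed. Cyp2e1, a gene also active in fat, stood at 6.18, 5.30 and 5.22 FPKM in HFLN, HFOB and Control, with overlapping intervals. Erythroid markers summed to 138, 183 and 246 FPKM in HFLN, HFOB and Control. The part of these cell types in the values of the set was not tested. Liver is a rich source of most of these enzymes. The hepatocyte marker Alb stood at 0.105 FPKM in HFLN, 0.0407 in HFOB and 0.0548 in Control, and 1 of 6 hepatocyte markers (Apoa1) reached 1 FPKM. The 6 summed to 48.9 FPKM in HFLN, 51.7 in HFOB and 51.4 in Control, nearly all of it Apoa1. Of the remaining sums, stroma stood at 737, 729 and 726, oocyte at 184, 197 and 183, and smooth muscle at 1152, 1321 and 1305 FPKM in HFLN, HFOB and Control. In the same order, surface epithelium stood at 404, 325 and 336 and macrophage at 351, 384 and 364 FPKM.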

How the data were processed

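Ovarian RNA was extracted on silica columns from flash-frozen tissue and made into strand-specific mRNA libraries, per the labels' protocols. Tools listed in the submitters' processing notes are Cuffdiff 2.2.1.3, Cufflinks 2.2.1.0, TopHat2 2.1.0 and Trimmomatic 0.32.3, on build mm10. Not given in the sources used here were the annotation, strand setting, library scaling, read depth and the level of the bounds. The authors deposited 1 FPKM per group with lower and upper bounds and a status, per the file headers. Depth per animal is unknown, so no counting interval is given.

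RefSeq transcript identifiers (36886, of which 99.2% matched) took their symbols and coordinates from RefSeq on GRCm38.p6, and 8920 rows had no symbol. Promoter windows came from RefSeq (8 of the 10 genes had one, not Ahr and Gsta4), coding sequences from GENCODE. Folds were computed in Python 3.11.15 with pandas 2.3.3 and numpy 2.4.6, and sequences handled with biopython 1.88. The code of the rule was run on Control values multiplied by known factors. That run checks the code and not how well the rule performs, because no spread between animals was simulated. With 1 value per group, the planned rule without a test was used. Named were the 10 genes and the 2 genes of widest fold per list and comparison. After their values were seen, further examples were added (Ggt5, Gstm7, Gsto1, Hsp90ab1, Tiparp, Ahrr, Nqo1, Cyp1a1, Cyp1a2, Gsta1, Gstm3 and those of the closing section). The members, the 9 pathway lists and the 12 marker lists were chosen with earlier results of these data known. A result that met the naming rule is not reported here.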

Additional observations from a re-analysis of the deposited data

How the results depend on the processing

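The 10 genes gave 0 passing rows in each comparison under every alternative run. The alternatives were a pseudocount of 0.1, no filter, a filter of 5 FPKM, centring on the median and a fold of 1.5. Others were separate intervals at any fold, rescaling to equal protein-coding FPKM, and summing the rows of a symbol. Passing needs separate intervals, and settings other than rescaling and summing left the overlapping bounds as they were, so they could not give a pass. Summing changed no fold of the set, so rescaling alone put this result at risk. Over all rows the count passing ran from 34 to 48 in HFLN over Control, 45 to 63 in HFOB over Control and 23 to 36 in HFOB over HFLN. Rescaling moved the set's median log2 fold to 0.15 in HFLN over Control and to -0.15 in HFOB over HFLN, and the rows lower than Control to 2 of 9 in HFLN and 3 of 8 in HFOB, by its own construction. Of 147 recomputed folds, 8 took the other sign (Ahr, Ephx1, Gsta3 and Cyp1b1). Each of the 8 had a fold under 0.1 on the log2 scale at first. The largest change of a fold was 0.215, set by the rescaling. All 147 stayed within the deposited intervals, which were wider than this change from the start, so that count was no test of stability. Keeping the failed HFOB value of the Gstm row, a choice made after seeing the data, gave medians of -0.08 for HFOB over Control and -0.03 for HFOB over HFLN. Leaving out an animal could not be done. No paired analysis was possible because the table holds 1 value per group. At the relative width of the Control bounds, intervals would separate only at a ratio of 2.03 (Gsta4) to 4.61 (Gsta3).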

Other observations

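Beyond the lists, all P450 genes were taken by symbol prefix after the values had been seen. Of 95 such rows, 28 reached 1 FPKM and 0 passed the size rule in any comparison. Cyp26a1, which degrades retinoic acid, was lowest in HFOB at 2.05 FPKM (0.348 to 3.75), beside 4.25 in HFLN (1.19 to 7.32) and 4.16 in Control (1.23 to 7.10), with log2 folds of -0.76 for HFOB over Control and -0.78 for HFOB over HFLN. Its relative Cyp26b1 had another order, at 0.781 FPKM in HFLN, 1.07 in HFOB and 1.40 in Control. All of these intervals overlapped.

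Among carboxylesterases, 4 of 16 rows reached 1 FPKM and 0 passed. Ces2a, a hydrolase of esters and amides, stood at 7.58 FPKM in HFLN (3.52 to 11.7), 3.42 in HFOB (1.32 to 5.52) and 5.56 in Control (2.63 to 8.48), with a log2 fold of -0.96 for HFOB over HFLN. The order matched that of the summed oviduct and motile-cilia markers, at 546, 355 and 438 FPKM, whose part in it was not tested. Akr1b7, an aldo-keto reductase of steroidogenic tissue that acts on aldehydes from lipid peroxidation as Gsta4 does, stood at 0.881 FPKM in HFLN, 1.02 in HFOB and 1.93 in Control, and its intervals overlapped as well.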
